A study of Homo sapiens with 3 samples.

Results

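Human mitochondrial DNA carries 37 genes, and all 37 had a row in the count table of these libraries, among 67008 gene models in all. They were chosen by chromosome, as every row placed on chromosome M, and were split by annotated type into 13 protein-coding genes, 2 ribosomal RNA genes and 22 transfer RNA genes. By strand of the reference, 28 lay on the plus strand and 9 on the minus strand. The rule uses no measured value, though it was set with earlier results of these data known.

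Poly(A)-selected RNA was sequenced as 100 bp paired-end reads from HEK293T, an established line derived from human embryonic kidney. All 3 libraries came from cells given lentivirus (5 particles per cell, polybrene at 8 µg/mL) and labelled 72 hours. The control, of genotype WT, carried the pLKO.1 vector (1 library). The other 2 libraries are labelled as DDX24 knockdown, 1 with the hairpin shDDX24-1 and 1 with shDDX24-2, here hairpin 1 and hairpin 2. DDX24 encodes a DEAD-box RNA helicase. Whether the cultures were separate is not stated. The p-values rest on the spread between the 2 hairpin libraries, to which the 1 control library adds nothing. Technical spread and differences between the hairpins cannot be told apart in it.

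Mitochondrial DNA is transcribed from both strands into long precursor RNAs that cover many genes. Most genes are read as the plus strand of the reference, and tRNAs that lie between the messages are cut out to release mRNAs and rRNAs. Transcription in the other direction gives MT-ND6 and several tRNAs, while the rest of that RNA has no gene and is degraded in the matrix. The messages encode membrane subunits of respiratory complexes I, III and IV and of ATP synthase. Short poly(A) tails are added to most of them, though MT-ND6 mRNA is known to lack a stable tail, and tRNAs receive the bases CCA in place of a tail.

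Depth was 52198744 counts in the control, 36738685 under hairpin 1 and 37828270 under hairpin 2. DDX24 had 0 counts in each of the 3 libraries, the control included, and so neither its expression nor the knockdown could be measured. Whether its reads were lost in counting was not tested. HMOX1, the heme oxygenase gene named in the study's aim, was at 91.3, 49.2 and 50.0 CPM (counts per 1000000, scaled by TMM) in the control and with hairpin 1 and hairpin 2. Of 7 markers of the line, all were detected, with summed levels of 491 to 512 CPM, of which VIM made up 321 to 349. Single markers varied more: CDH2 had log2 ratios to the control of -0.38 and 0.45 under hairpin 1 and hairpin 2, KRT8 was at 65.1, 61.6 and 46.2 CPM in the control and under hairpin 1 and hairpin 2, and NEFM at 19.7, 27.4 and 30.8, and their part in the results was not tested. Of 7 markers of blood, liver, fibroblasts and endothelium, COL1A1 was at 19.5 to 24.6 CPM. The other 6 were at or below 1.42 CPM in every library, and PTPRC, a marker of blood cells, was at 0 with hairpin 2. The control had 75 counts of the globin gene HBB, against 8 and 4 under the hairpins; its part in the results was not tested.

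The tail matters for several of these messages, because the gene itself ends in an unfinished stop codon. For 6 of the 13 protein-coding genes as annotated, the last codon holds only T or TA, and added adenines complete TAA. The last 15 bases of these genes are shown, from the GENCODE release 29 transcripts (GRCh38, plus strand), with the encoded part of the stop codon in capitals.

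MT-ND1 (chrM:4248-4262): tccccctcaaaccTA

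MT-ND2 (chrM:5497-5511): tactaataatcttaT

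MT-CO3 (chrM:9976-9990): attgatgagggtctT

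MT-ND3 (chrM:10390-10404): tagactgaaccgaaT

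MT-ND4 (chrM:12123-12137): ccgggttttcctctT

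MT-CYB (chrM:15873-15887): tactcaaatgggccT

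The other 7 end in a complete stop codon as annotated. For MT-ATP6 the last base of that codon, 9207, is also the first base of MT-CO3. Its place among the 7 therefore holds for the annotated end only. MT-CO1 and MT-ND6 are shown because they end in AGA and AGG, which are arginine codons in the nuclear code (15 bases, stop in capitals, MT-ND6 read on the minus strand).

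MT-CO1 (chrM:7431-7445): tacataaaatctAGA

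MT-ND6 (chrM:14149-14163): gctcgggggaatAGG

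As a share of all counts, genes of mitochondrial DNA took 3.51% in the control, 4.21% under hairpin 1 and 3.80% under hairpin 2. Exact Clopper-Pearson intervals at 95% were 3.51 to 3.52, 4.21 to 4.22 and 3.79 to 3.80, and cover counting error only, as do all intervals given here. Both hairpin libraries were above the control. With 1 control library, no permutation of the labels can give a p below 0.333, so the share was not tested. The knockdown mean exceeded the control by 0.494 percentage points, with an SD of 0.297 between the hairpins (n = 2). In bulk libraries, more mitochondrial RNA per cell and less nuclear mRNA per cell cannot be told apart.

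By type, mRNAs made up 88.1% of the mitochondrial counts in the control, 87.0% under hairpin 1 and 87.6% under hairpin 2. The 2 rRNAs made up 11.9%, 12.9% and 12.3%. The 22 tRNA genes together held 719, 414 and 910 counts, or 0.0392%, 0.0267% and 0.0634%. The mRNAs and rRNAs were thus higher in both hairpin libraries than in the control when scaled to the library, while the tRNA sum was 13.6 CPM in the control, 11.2 under hairpin 1 and 24.5 under hairpin 2.

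None of the mitochondrial genes separated the knockdown from the control by edgeR's quasi-likelihood test with Benjamini-Hochberg adjustment. Of the 37, 24 passed the filter on low counts, namely all 15 mRNA and rRNA genes and 9 of the 22 tRNA genes, and 0 had an adjusted p at or below 0.05 (smallest adjusted p = 0.999). Over all 17713 genes tested, 0.0113% were called. DESeq2 and limma-voom also called 0 of the 24. At an unadjusted p under 0.05 there were 6, namely MT-ND4L, MT-ND5, MT-ND6, MT-ATP8, MT-TT and MT-TC, against 3.9% of all genes; MT-TC was the 1 with a negative fold change; it passed the filter through the control alone, with 14 counts there against 0 and 3, so it had to differ and supports nothing. The residual spread rests on 1 degree of freedom, the difference between the hairpins.

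Relative to the control library, 14 of the 15 mRNA and rRNA genes were higher with both hairpins and MT-ND3 was lower with both, although scaling to library totals left 12 higher, and removal of a GC and length trend 11. Scaled to the mitochondrial mRNA counts themselves, the log2 fold changes of MT-ND2, MT-ATP6, MT-CYB, MT-CO2, MT-ND4 and MT-CO3 were negative. Over all genes tested, 31.9% were higher and 32.0% lower with both, and among the 10995 genes whose level reached 5 CPM in a library or more, 34.4% and 28.5%. The hairpins share the one control, so this count is not 2 independent observations. The median log2 ratio of the 13 mRNA genes was 0.20 under hairpin 1 and 0.17 under hairpin 2, where all genes tested had medians of 0.0025 and -0.0040. The SD of such ratios was 0.204 and 0.252 over genes at 5 CPM or more. A level at least 1.2-fold above the control with both hairpins was found for 4 of the 15, MT-ND4L, MT-ND5, MT-ND6 and MT-ATP8, against 6.24% of all genes tested and 2.58% at 5 CPM or more.

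**Figure D1:**
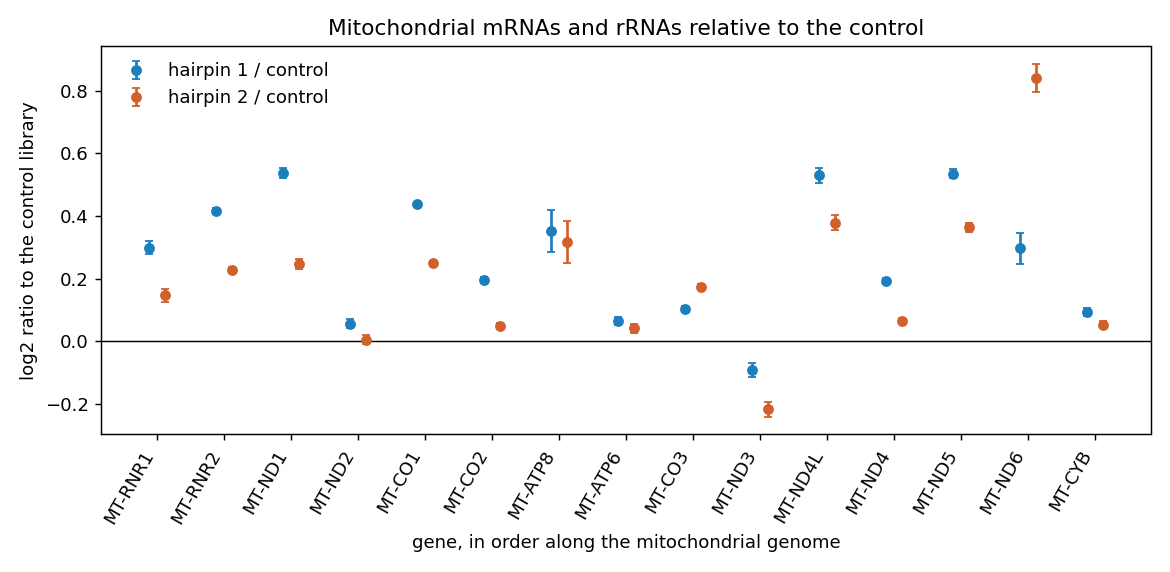
Log2 ratio of each hairpin library to the control for the 13 mRNA and 2 rRNA genes, in order along the mitochondrial genome; bars are exact 95% intervals of the counts. Ratios range from -0.22 (MT-ND3, hairpin 2) to 0.84 (MT-ND6, hairpin 2), and 13 of the 15 genes have the higher ratio with hairpin 1, with MT-CO3 and MT-ND6 the exceptions. The median log2 ratio of hairpin 2 to hairpin 1 over all genes tested was -0.0048.

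Among complex I genes, which encode core subunits of the membrane arm of NADH dehydrogenase, MT-ND5 (plus strand of chromosome M, 12337 to 14148) had 1482 CPM in the control, 2147 under hairpin 1 and 1907 under hairpin 2. Both hairpin libraries lay above the control, with a log2 fold change of 0.45 ± 0.17 (SE, edgeR adjusted p = 0.999). MT-ND1 (3307 to 4262) was at 1223, 1775 and 1452 CPM in the same order, with a log2 fold change of 0.40 ± 0.18 (edgeR adjusted p = 0.999). It was also the plus-strand mRNA with the widest gap between the hairpins, with a log2 ratio of hairpin 2 to hairpin 1 of -0.29 (interval -0.31 to -0.27). MT-ND4L (10470 to 10766) was at 589, 850 and 766 CPM and had the largest log2 fold change of the plus-strand mRNAs, 0.46 ± 0.15 (edgeR adjusted p = 0.999).

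The remaining plus-strand complex I genes sat closer to the control. MT-ND4 (10760 to 12137) was at 3681, 4210 and 3850 CPM. MT-ND2 (4470 to 5511) was at 1778, 1847 and 1783 CPM, and with hairpin 2 its log2 ratio to the control was 0.00 (interval -0.01 to 0.02). MT-ND3 (10059 to 10404) was at 717, 673 and 617 CPM, below the control in both hairpin libraries, with log2 ratios of -0.09 and -0.22. So, of 7 subunits of one complex, 3 reached 1.2-fold with both hairpins, and 1 was below the control with both. Read as counts within a library, MT-ND5 stood at 2.07 times MT-ND3 in the control, and at 3.19 and 3.09 times with hairpin 1 and hairpin 2, a contrast that no scaling between libraries affects.

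Cytochrome c oxidase, complex IV, has its catalytic core encoded by MT-CO1, MT-CO2 and MT-CO3. MT-CO1 (5904 to 7445), the subunit that binds the heme and copper centres where oxygen is reduced, was at 7132 CPM in the control, 9666 under hairpin 1 and 8472 under hairpin 2. Its log2 fold change was 0.35 ± 0.22 (edgeR adjusted p = 0.999). MT-CO2 (7586 to 8269), which receives electrons from cytochrome c, was at 4358, 4992 and 4511 CPM. MT-CO3 (9207 to 9990) was at 5075, 5456 and 5722 CPM, the 1 plus-strand message higher with hairpin 2 than with hairpin 1. All 3 were above the control with both hairpins, and their order among the hairpins was not the same. MT-CO1 took 23.3% of the mitochondrial mRNA counts in the control, 26.5% under hairpin 1 and 25.0% under hairpin 2, while MT-CO2 took 14.3%, 13.7% and 13.3%.

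MT-CYB (14747 to 15887) encodes cytochrome b, the mitochondrially encoded subunit of complex III, and was at 2476, 2642 and 2569 CPM. ATP synthase is represented by MT-ATP6 (8527 to 9207), part of the proton channel, at 1862, 1947 and 1916 CPM, and by MT-ATP8 (8366 to 8572), a small membrane subunit, at 71.5, 91.3 and 89.0 CPM. MT-CYB and MT-ATP6 were within 0.10 of the control on the log2 scale with each hairpin. For MT-ATP6 this holds for its own row. Summed with its nuclear copy MTATP6P1, it was at 2088, 2271 and 2203 CPM. MT-ATP8 had log2 ratios of 0.35 and 0.32, and a log2 fold change of 0.33 ± 0.13 (SE, edgeR adjusted p = 0.999).

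The rRNA genes, which lie first on the plus-strand precursor and form the mitochondrial ribosome, were also above the control. MT-RNR2 (1671 to 3229), the large-subunit rRNA, was at 3397 CPM in the control, 4534 under hairpin 1 and 3978 under hairpin 2, with a log2 fold change of 0.33 ± 0.19 (SE, edgeR adjusted p = 0.999). MT-RNR1 (648 to 1601), the small-subunit rRNA, was at 721, 887 and 798 CPM. Poly(A) selection sets how much of either rRNA is seen, so the ratio of rRNA to mRNA here is not that of the cell.

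Levels per length differed far more between genes than between libraries. In the control, MT-CO3 was at 6474 CPM per kb of gene, MT-CO2 at 6371 and MT-CO1 at 4625. A middle set ran from MT-ATP6 at 2734 and MT-ND4 at 2671 through MT-RNR2 at 2179, MT-CYB at 2170, MT-ND3 at 2072, MT-ND4L at 1982 and MT-ND2 at 1706 CPM per kb. Lower were MT-ND1 at 1279, MT-ND5 at 818, MT-RNR1 at 756, MT-ATP8 at 345 and MT-ND6 at 256 CPM per kb. The range among mRNAs was 25.3-fold in the control, 23.2-fold with hairpin 1 and 17.0-fold with hairpin 2. Its low end was MT-ND6 in the control and with hairpin 1, and MT-ATP8 with hairpin 2. MT-ND6 mRNA lacks a stable tail, and MT-ATP8 is 207 bases long and overlaps MT-ATP6. The parts of poly(A) selection and of read counting in these values were not tested. Genes in this order changed places between libraries, so it is not a stable one. With hairpin 1, MT-CO2 (7299 CPM per kb) was above MT-CO3 (6960), MT-ND4 (3055) above MT-ATP6 (2860), and MT-ND1 (1857) above MT-ND2 (1773). With hairpin 2, MT-ND6 (459) was above MT-ATP8 (430). MT-ND4L, below MT-CYB and MT-ND3 in the control, was above both with hairpin 1 (2861) and hairpin 2 (2578). The list of changes is not complete.

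**Figure D2:**
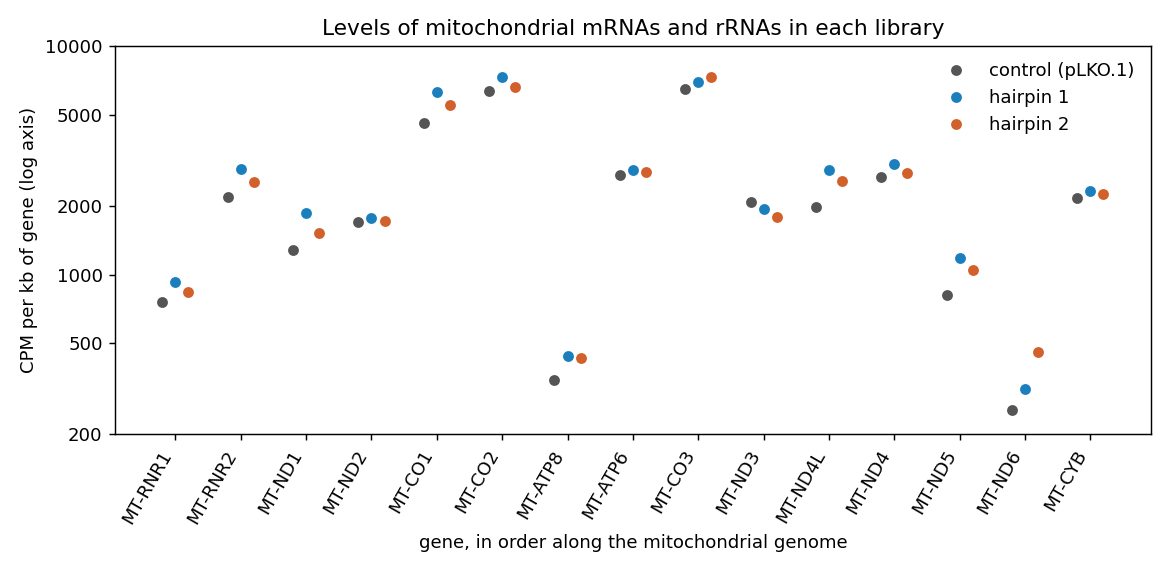
CPM per kb of gene (log axis) of the 13 mRNA and 2 rRNA genes in each of the 3 libraries, in order along the mitochondrial genome. The complex IV genes lie highest, between 4625 and 7299 CPM per kb, and MT-ATP8 and MT-ND6 lowest, between 256 and 459. Values are not corrected for poly(A) selection or for the counting of short or overlapping genes.

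Pairs of genes overlap on the plus strand and are known to share 1 mRNA each. The overlaps are shown in capitals with 10 bases on each side, because reads in them belong to both genes.

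MT-ATP8/MT-ATP6 (chrM:8517-8582): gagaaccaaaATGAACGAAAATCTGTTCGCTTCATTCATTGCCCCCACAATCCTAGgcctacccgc

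MT-ND4L/MT-ND4 (chrM:10750-10776): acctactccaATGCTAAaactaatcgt

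The first overlap is 46 bases long and the second 7; each runs from the start codon of the downstream gene to the stop codon of the upstream one. Although MT-ATP8 and MT-ATP6 share a message, MT-ATP6 was 7.92 times as high per kb in the control, and 6.48 and 6.54 times with hairpin 1 and hairpin 2. MT-ND4 was 1.35 times as high per kb as MT-ND4L in the control, and 1.07 and 1.08 times under the hairpins. In both pairs the upstream, shorter gene had the larger log2 ratio to the control with each hairpin, 0.35 and 0.32 against 0.06 and 0.04 for the first pair and 0.53 and 0.38 against 0.19 and 0.06 for the second. How the counter treats a read that touches both genes is not given in the sources used here, and its part in these differences was not tested. MTATP6P1, a nuclear copy of MT-ATP6, had log2 ratios of 0.51 and 0.35, and its part in the first pair was not tested.

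Properties of the genes themselves ordered the ratios weakly. Over the 14 plus-strand mRNA and rRNA genes, Spearman's rho of the log2 ratio with gene length was 0.27 under hairpin 1 and 0.13 under hairpin 2, with GC content 0.25 and 0.10, with position along the genome -0.18 and 0.04, and with control CPM -0.13 and -0.19. These points share libraries and a precursor RNA, so the values are descriptions. The 6 genes annotated with an unfinished stop codon had median log2 ratios of 0.10 and 0.06, and the 7 with a complete one 0.35 and 0.32. The ranges overlapped (-0.09 to 0.54 against 0.06 to 0.53 with hairpin 1). MT-ATP6, whose last base is shared with MT-CO3, was counted among the 7, with log2 ratios of 0.06 and 0.04.

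Hairpin 2 gave the higher level for the 1 mRNA of the minus strand, whereas hairpin 1 did for 11 of the 12 plus-strand mRNAs. MT-ND6 (chromosome M, 14149 to 14673), a complex I subunit and the only message of that strand, was at 134 CPM in the control, 165 under hairpin 1 and 241 under hairpin 2. Both hairpin libraries were above the control, and hairpin 2 was above hairpin 1, with a log2 ratio between them of 0.54 (interval 0.50 to 0.59). For the other 12 mRNAs that ratio ran from -0.29 to 0.07. Its median was -0.13 over those 12 and -0.0048 over all genes tested. How many of all genes went in either direction was not computed. The log2 fold change of MT-ND6 across both was 0.59 ± 0.23 (SE, edgeR adjusted p = 0.999). Because MT-ND6 mRNA lacks a stable tail, poly(A) selection bears on how much of it is seen. The part of selection in these values and in the difference between hairpins was not tested. MT-ND6 is also the mRNA rich in G, at 35.6% of its bases against 6.28 to 16.2% in the 12 plus-strand mRNAs. Against MT-ND5, whose gene ends at the base next to it on the opposite strand, MT-ND6 had 0.0907 as many counts in the control, 0.0769 under hairpin 1 and 0.126 under hairpin 2.

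The minus-strand genes together held 0.424% of the mitochondrial counts in the control (exact interval 0.414 to 0.433), 0.417% with hairpin 1 (0.407 to 0.427) and 0.682% with hairpin 2 (0.668 to 0.695). MT-ND6 alone held 7100 of the 7767 minus-strand counts in the control, 6104 of 6454 under hairpin 1 and 8939 of 9788 under hairpin 2. The share therefore largely repeats the MT-ND6 values above, with the same limit from poly(A) selection. In it, the control and hairpin 1 overlapped in their intervals, and hairpin 2 stood above both. With 1 library for each hairpin, this difference has no replicate check and was not tested.

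Among tRNA genes the strands split as well. Of the 14 on the plus strand, 9 had 0 counts in every library, which allows up to 0.0568 CPM in the control and 0.0812 and 0.0809 under hairpin 1 and hairpin 2. All 8 on the minus strand had at least 1 count in a library. In all, plus-strand tRNA genes held 52, 64 and 61 counts in the control and with hairpin 1 and hairpin 2, and minus-strand tRNA genes 667, 350 and 849. The genes are 59 to 75 bases long, shorter than the 100 bp reads. With that length and poly(A) selection, the tRNA gene counts given here are not read as levels of mature tRNA. Which RNA these reads came from was not tested. Just 3 of the 22 have no gene on their own strand within 100 bases, and these 3, MT-TQ, MT-TS1 and MT-TP, held the highest tRNA counts of the control library. Under hairpin 1, MT-TT, which has a neighbour within 100 bases, had 59 counts and was above MT-TS1 with 43. They are shown for that reason, read 5′ to 3′ on the minus strand, with the anticodon in capitals (GENCODE release 29, GRCh38).

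MT-TQ (chrM:4329-4400): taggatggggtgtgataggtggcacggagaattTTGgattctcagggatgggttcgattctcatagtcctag

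MT-TS1 (chrM:7446-7514): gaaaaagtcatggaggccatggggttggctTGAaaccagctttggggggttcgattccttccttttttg

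MT-TP (chrM:15956-16023): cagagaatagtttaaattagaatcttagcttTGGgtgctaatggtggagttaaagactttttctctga

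MT-TQ, the glutamine tRNA, had 286 counts in the control, 177 under hairpin 1 and 394 under hairpin 2, or 5.42, 4.79 and 10.6 CPM. MT-TS1, the serine tRNA that reads UCN codons, had 161, 43 and 188 counts, or 3.05, 1.16 and 5.07 CPM. MT-TP, the proline tRNA, had 153, 94 and 177 counts, or 2.90, 2.54 and 4.77 CPM. Under hairpin 2 all 3 were above the control. Under hairpin 1, MT-TS1 was below it, with a log2 ratio to the control of -1.35 (interval -1.91 to -0.90). The same ratio was -0.18 for MT-TQ (-0.46 to 0.10) and -0.19 for MT-TP (-0.57 to 0.19), so neither was separated from the control by counting error.

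The log2 ratio of hairpin 2 to hairpin 1 was 2.08 for MT-TS1 (interval 1.64 to 2.64), 1.14 for MT-TQ (0.89 to 1.41) and 0.90 for MT-TP (0.54 to 1.28). Those intervals cover counting error only, and each rests on 1 library per hairpin. The log2 fold changes of the group were 0.03 ± 0.67, 0.51 ± 0.44 and 0.34 ± 0.39 (SE, edgeR adjusted p = 0.999 for each).

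Other minus-strand tRNA genes had fewer counts, up to 48 in a library. MT-TA, the alanine tRNA gene, had 21, 22 and 48 counts in the control and with hairpin 1 and hairpin 2, MT-TY (tyrosine) 20, 7 and 26, MT-TE (glutamate) 11, 7 and 12, and MT-TC (cysteine) 14, 0 and 3. MT-TN (asparagine) had 1, 0 and 1 and was not tested. Of the 7 minus-strand tRNA genes that passed the filter, hairpin 2 was above hairpin 1 in 7 and at least 2-fold above it in 5, of which MT-TC is set against 0 counts. Over all genes tested, 1.27% were at least 2-fold higher with hairpin 2 than with hairpin 1 and 2.65% at least 2-fold lower. Of genes that reached 5 CPM in a library, these were 0.0455% and 0.427%. MT-TS1 reached that level under hairpin 2 alone, the library where it is high, so nothing is read from the last pair of shares for it. Those with few counts could pass the filter through 1 high library, so the count of 7 supports nothing beyond the values given.

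On the plus strand, MT-TT, the threonine tRNA gene and the last of that strand, had 37, 59 and 47 counts, or 0.70, 1.60 and 1.27 CPM, and a log2 fold change of 1.03 ± 0.37 (SE, edgeR adjusted p = 0.999). It was above the control with both hairpins, and higher with hairpin 1. MT-TW, the tryptophan tRNA gene, had 8, 4 and 11 counts. The other plus-strand tRNA genes with any count, MT-TF, MT-TI and MT-TM, had at most 4 in a library.

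**Figure D3:**
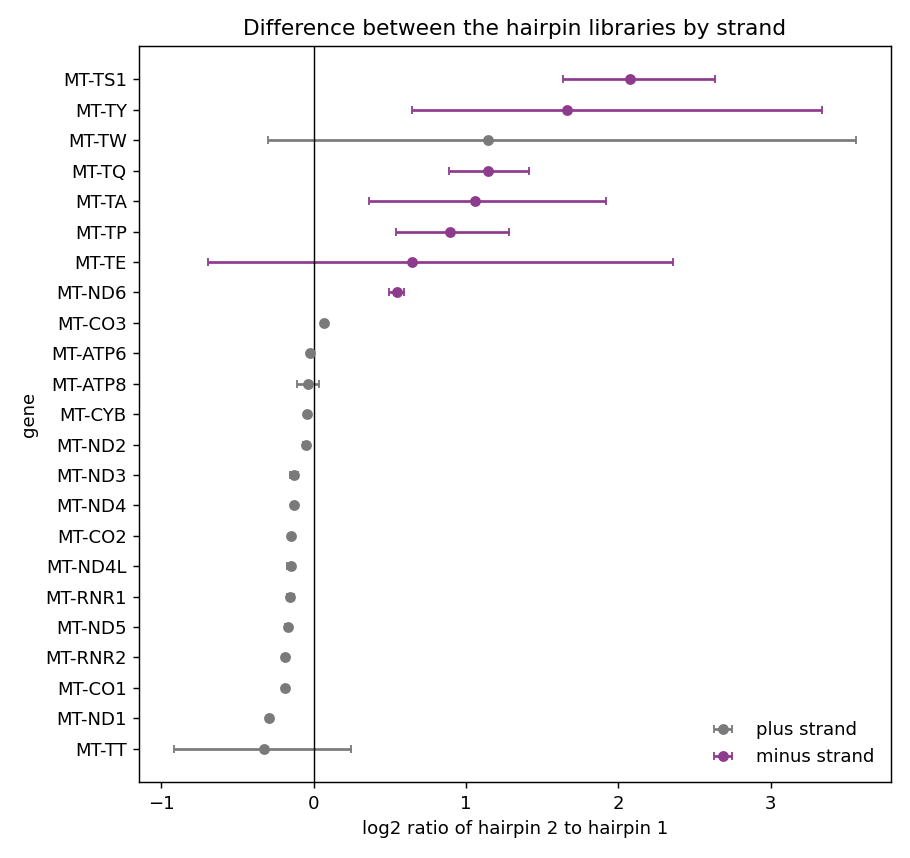
Log2 ratio of hairpin 2 to hairpin 1 for the mitochondrial genes tested, sorted by value and coloured by strand; bars are exact 95% intervals of the counts, and MT-TC is left out because it had 0 counts with hairpin 1. Minus-strand genes lie between 0.54 and 2.08, and plus-strand mRNAs and rRNAs between -0.29 and 0.07, with the plus-strand tRNA genes MT-TT at -0.32 and MT-TW at 1.14.

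The nuclear genes that act on mitochondrial DNA and its RNA were read from a list of 84 symbols, of which 81 were found on chromosomes and 79 passed the filter. None of the 79 was called by edgeR, DESeq2 or limma-voom, where edgeR called 0.0113% of all genes. At an unadjusted p under 0.05 in edgeR there were 2 of the 79, MRPL12 and RNASEH1, beside 3.9% of all genes. With both hairpins 33 were higher and 17 lower, beside 31.9% and 32.0% of all genes tested, and the median log2 ratios were -0.02 and 0.08.

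The roles are described by their counts, to be read beside those same shares of all genes. Transcription factors of the organelle had 2 of 10 higher and 4 lower with both hairpins. POLRMT, the mitochondrial RNA polymerase, was at 120, 126 and 122 CPM in the control and with hairpin 1 and hairpin 2, and TFAM, which packages mitochondrial DNA and activates its promoters, at 203, 201 and 218 CPM. MRPL12, a ribosomal protein that also binds POLRMT, was at 7.73, 10.2 and 12.3 CPM, with a log2 fold change of 0.54 ± 0.22 (SE, edgeR adjusted p = 0.999). MTERF1, a factor that binds downstream of the rRNA genes, was at 28.1, 23.1 and 24.6 CPM, and MTERF4, which acts in ribosome assembly, at 49.0, 46.4 and 34.4 CPM.

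RNA stability and decay factors, 8 genes, had 5 higher and 0 lower with both hairpins, with log2 fold changes of 0.01 to 0.12. LRPPRC, which with SLIRP protects mitochondrial mRNAs, was at 503, 472 and 577 CPM, and SLIRP at 105, 111 and 113 CPM. The decay enzymes PNPT1, a polynucleotide phosphorylase, and SUPV3L1, its helicase partner, which together degrade antisense RNA of the organelle, were at 137, 139 and 159 CPM and at 97.5, 98.2 and 114 CPM. REXO2, an oligonucleotide exonuclease, was at 36.0, 38.8 and 38.2 CPM, and MTPAP, the mitochondrial poly(A) polymerase, at 54.9, 52.8 and 60.5 CPM. All of the 8 but REXO2 were higher with hairpin 2 than with hairpin 1. The median log2 ratios to the control were 0.01 and 0.12 for this role, and -0.02 and 0.08 for the whole list. The share of all genes with that direction between hairpins was not computed.

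Of 30 RNA processing and modification genes tested, 11 were higher and 8 lower with both. PTCD2, a pentatricopeptide repeat protein, had a log2 fold change of 0.29 ± 0.14 (SE, edgeR adjusted p = 0.999). GTPBP3, a tRNA modification enzyme, was at 98.5, 112 and 118 CPM, and MRM2, an rRNA methyltransferase, at 0.34, 0.62 and 0.62 CPM. The MRM2 values rest on 18, 23 and 23 counts. TRMT10C, HSD17B10 and ELAC2, which act in tRNA excision, had log2 fold changes of -0.03, 0.15 and 0.06. Of 18 replication and packaging genes, 7 were higher and 5 lower; RNASEH1, which removes RNA from DNA hybrids, was at 49.8, 63.5 and 66.3 CPM, TOP1MT, a topoisomerase, at 46.6, 53.6 and 59.8 CPM, and MGME1, a nuclease, at 107, 92.3 and 86.7 CPM. Of 13 translation factors, 8 were higher and 0 lower with both, a count on few genes that was not tested against the 31.9% and 32.0% of all genes tested. Among the 8 were TUFM, an elongation factor, at 389, 416 and 463 CPM, and MRRF, the ribosome recycling factor, at 55.8, 62.8 and 68.9 CPM. Another was TSFM, the exchange factor of TUFM, at 0.74, 0.79 and 0.86 CPM, from just 39, 29 and 32 counts.

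**Figure D4:**
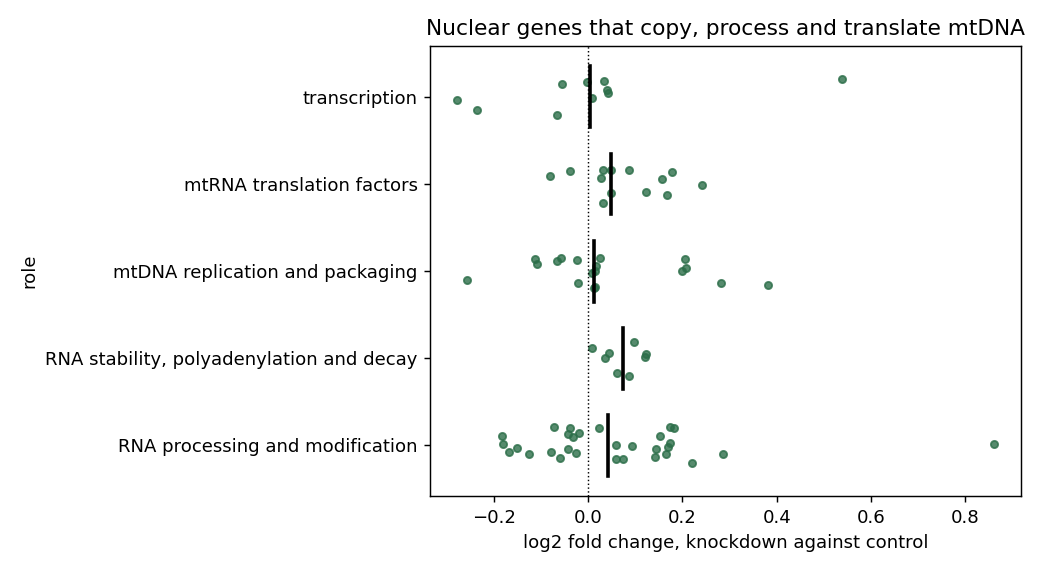
Log2 fold change (knockdown against control, edgeR) of 79 nuclear genes that act on mitochondrial DNA and RNA, by role; each point is a gene, spread vertically at random, and black bars are medians. All but MRPL12 (0.54) and MRM2 (0.86) lie between -0.28 and 0.38, and 0 were called. MRM2 had 18 counts in the control, 23 under hairpin 1 and 23 under hairpin 2.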

How the data were processed

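The authors deposited raw whole-number counts per gene, 1 column per library. The submitters' processing notes list GRCh38 (hg38) as the build, and STAR 2.7.3a and DESeq2 1.26 as tools. How reads were counted, on which strand and against which annotation is not given in the sources used here. Identifiers, coordinates and strands of all 37 mitochondrial genes matched GENCODE release 29, which supplied the sequences. Reads that match nuclear copies or overlapping genes may be divided or lost, and without a stated strand setting reads of opposite strands cannot be told apart with certainty.

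Counts were filtered with filterByExpr (minimum count 10), scaled by TMM and tested over all 17713 genes with edgeR 4.0.16 (glmQLFit with legacy = FALSE, glmQLFTest, R 4.3.3), with Benjamini-Hochberg adjustment at 0.05, on 3 libraries. SE was taken as the fold change (log2) over the root of F. A prior count of 2 entered the log2 ratio of each hairpin library; their exact intervals used the counts. Where no read was counted, 3 counts set the upper limit.

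All mRNA and rRNA genes were named, tRNA genes with 10 counts in a library, and up to 3 nuclear genes per role by the smaller ratio of both hairpins, plus POLRMT, TFAM, LRPPRC, SUPV3L1, MTPAP, TRMT10C, HSD17B10 and ELAC2, named after their values were seen. Members and lists were chosen with earlier results of these data known. Alternatives were other scalings, filters, DESeq2 1.42.0, limma-voom (limma 3.58.1), the legacy fit, a prior count of 0.5, an adjusted p of 0.1 and leaving out each hairpin; removal of a trend on GC content and length was added after the data were seen.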

Additional observations from a re-analysis of the deposited data

How the results depend on the processing

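No mitochondrial gene and no listed nuclear gene was called with DESeq2 size factors, library totals, TMM without mitochondrial genes, either other filter, DESeq2, limma-voom, the legacy edgeR fit or, for the reported fit, an adjusted p of 0.1; 1 to 10 and 1 to 3 of them had an unadjusted p under 0.05. Scaling to the mitochondrial mRNA counts was run for the mitochondrial genes' fold changes, and there MT-TC had an edgeR adjusted p of 0.0836 (0.625 to 1.00 under its other alternatives). Scaled to the mitochondrial mRNA counts, the log2 fold changes of MT-ND2 (-0.17), MT-ATP6 (-0.15), MT-CYB (-0.13), MT-CO2 (-0.078), MT-ND4 (-0.072), MT-CO3 (-0.060) and MT-TS1 (-0.15) turned negative. That of MT-TS1 was -0.00031 with library totals and -0.32 with limma-voom, which gave -0.027 for MT-TY. Without hairpin 2, 6 tRNA genes turned negative; without hairpin 2 and without hairpin 1 their values were -0.18 and 0.97 for MT-TQ, -0.35 and 0.79 for MT-TW, -0.85 and 0.81 for MT-TY, -1.35 and 0.72 for MT-TS1, -0.11 and 0.54 for MT-TE, and -0.19 and 0.71 for MT-TP. Apart from these hairpin contrasts, the cause of each change was not tested. The excess of the minus-strand share over the control, 0.126 percentage points, was -0.0070 without hairpin 2 and 0.258 without hairpin 1, and -3.85 among tRNA genes alone. The excess of the mitochondrial share was 0.284 to 0.704 without either hairpin. The median of the 13 mRNA genes went from 0.17 to 0.13 for hairpin 2 with library totals, and to 0.12 with the GC and length trend removed (0.21 for hairpin 1). Of the 24 mitochondrial genes tested, 16 were higher with both hairpins and 2 lower, beside 31.9% and 32.0% of all genes tested. At 1.2-fold these were 6 and 1, and among mRNAs and rRNAs 4 and 0. The share of all genes at least 1.2-fold higher was 6.24%, and that for lower was not computed. The 1 lower at 1.2-fold was MT-TC, which passed the filter through the control alone and supports nothing. With library totals 12 of the 15 mRNA and rRNA genes were higher with both, and with the trend removed 11. No paired analysis was possible because the control is 1 library. Leaving out a hairpin left no residual degrees of freedom, so those are values without a test.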

Other observations

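Nuclear copies of mitochondrial genes had rows of their own in the count table, most of them at 0. Of 407 such gene models on chromosomes, 310 had 0 counts in every library, and all together they held 17543 counts in the control, 16039 under hairpin 1 and 14612 under hairpin 2, equal to 0.957%, 1.04% and 1.02% of the mitochondrial counts. Most of these counts lay in one block on chromosome 1. MTATP6P1 (GRCh38 chromosome 1, 633696 to 634376), a copy of MT-ATP6, was at 227 CPM in the control, 323 under hairpin 1 and 288 under hairpin 2, with a log2 fold change of 0.43 ± 0.14 (SE, edgeR adjusted p = 0.999). Its log2 ratios of 0.51 and 0.35 compare with 0.06 and 0.04 for MT-ATP6 itself, and it made up 10.8%, 14.2% and 13.1% of the counts of the pair. Summed, the pair was at 2088, 2271 and 2203 CPM.

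MTND2P28 (chromosome 1, 629640 to 630683) was at 72.2, 70.8 and 71.3 CPM, as level as MT-ND2, and MTCO1P12 (631074 to 632616) at 26.9, 32.3 and 27.6 CPM. MTND4P12, MTCO3P12 and MTCO2P12 were at or below 1.73 CPM. These copies are close to their sources in sequence, so how reads were divided between a gene and its copy was not tested.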
